A study of Mus musculus with 2 samples.

Results

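The nuclear-encoded subunits of the respiratory chain and of ATP synthase were followed gene by gene and isoform by isoform in long-read RNA sequencing of the adrenal gland. They were taken as protein-coding genes of the GENCODE M21 annotation whose symbol begins with Ndufa, Ndufb, Ndufc, Ndufs or Ndufv and a digit, Uqcr, Atp5 or Cox4 to Cox8, or is Ndufab1, Sdha to Sdhd, Cyc1 or Cycs. Of 88 such genes 86 had reads in at least 1 library, out of all annotated genes with reads (18111), and Cox7b2 and Cox8c had 0 reads in both. The rule also takes in Atp5s, which is not a subunit of the enzyme, and a second Atp5o entry that spans a neighbouring gene, which leaves 84 genes of subunits or their paralogues. The study compared no treatments. It holds 2 libraries of 1 group, adrenal glands of 14-day-old female B6CASTF1/J mice, an F1 hybrid of a C57BL/6 and a CAST parent, labelled biological replicates 2 and 1. The tissue behind replicate 2 is named for a single female, that behind replicate 1 for 3 females, and the library descriptions of both speak of 3 females, so replicate 1 may be a pool. Both carry the same donor entry, and the labels do not say that the tissues came from separate animals. The spread between the libraries therefore need not be a spread between animals.

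Complexes I and II pass electrons from NADH and succinate to ubiquinone, complex III passes them on to cytochrome c, and complex IV, cytochrome c oxidase, hands them to oxygen. Complex V, ATP synthase, uses the proton gradient built on the way. A few core subunits of complexes I, III and IV and of the membrane part of complex V are encoded in mitochondrial DNA, and all others are made from nuclear genes, among them small supernumerary subunits that hold no redox centre. In the adrenal cortex mitochondria also carry out steps of steroid synthesis, and brown fat, heart and skeletal muscle are known for tissue-specific versions of several complex IV subunits.

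Replicate 2 held 946553 reads in annotated genes and replicate 1 held 1065570. Levels are reads per 1000000 of these (CPM). Each read stands for 1 cDNA, so CPM was not divided by transcript length. Lengths are given for only some of the genes whose levels are set side by side. Before any member is compared, the tissue markers set the libraries apart. Cortex markers summed to 25654 CPM in replicate 2 and 58028 CPM in replicate 1 (10 of 10 lower in replicate 2), and medulla markers to 5065 and 13033 CPM (7 of 8 lower), so both libraries hold the labelled tissue. Hepatocyte markers summed to 78329 CPM in replicate 2 and 709 CPM in replicate 1 (10 of 10 higher; Tat was at 0 in replicate 1), skeletal muscle markers to 2687 and 125 CPM (9 of 12 higher, the other 3 not tested; Myh1, Myh2 and Tnnt3 were at 0 in replicate 1), brown adipocyte markers to 7728 and 6661 CPM (2 of 6 higher) and erythroid markers to 3623 and 11338 CPM (5 of 5 lower). The part of these cells in the results below was not tested, except where a value bears on it directly. Fewer cells of a type and less RNA per cell cannot be told apart in bulk tissue.

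The members took up 6.19% of gene reads in replicate 2 (58558 reads, Clopper-Pearson 95% interval 6.14 to 6.24%) and 5.97% in replicate 1 (63584 reads, 5.92 to 6.01%), 6.08 ± 0.155% over both (SD, n = 2). Among the 100 genes with most reads, 12 were members in replicate 2 and 13 in replicate 1. The share by enzyme was close in the libraries. The 18 complex IV genes with reads took 1.67% and 1.69% of gene reads in replicates 2 and 1 (1.68 ± 0.00811%, SD, n = 2). The 36 complex I genes took 1.63% and 1.60% (1.62 ± 0.0195%), and the 16 complex V genes 1.54% and 1.46% (1.5 ± 0.0542%). The 9 complex III genes took 0.946% and 0.867% (0.907 ± 0.0559%), and the 4 complex II genes 0.318% and 0.278% (0.298 ± 0.0283%). Cycs, the only cytochrome c gene that the rule takes in, took 0.0770% and 0.0694%. The median member had a mean level of 550.3 CPM. Mean levels of 65 members lay between 100 and 1000 CPM, and those of 15 were higher.

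**Figure D1:**
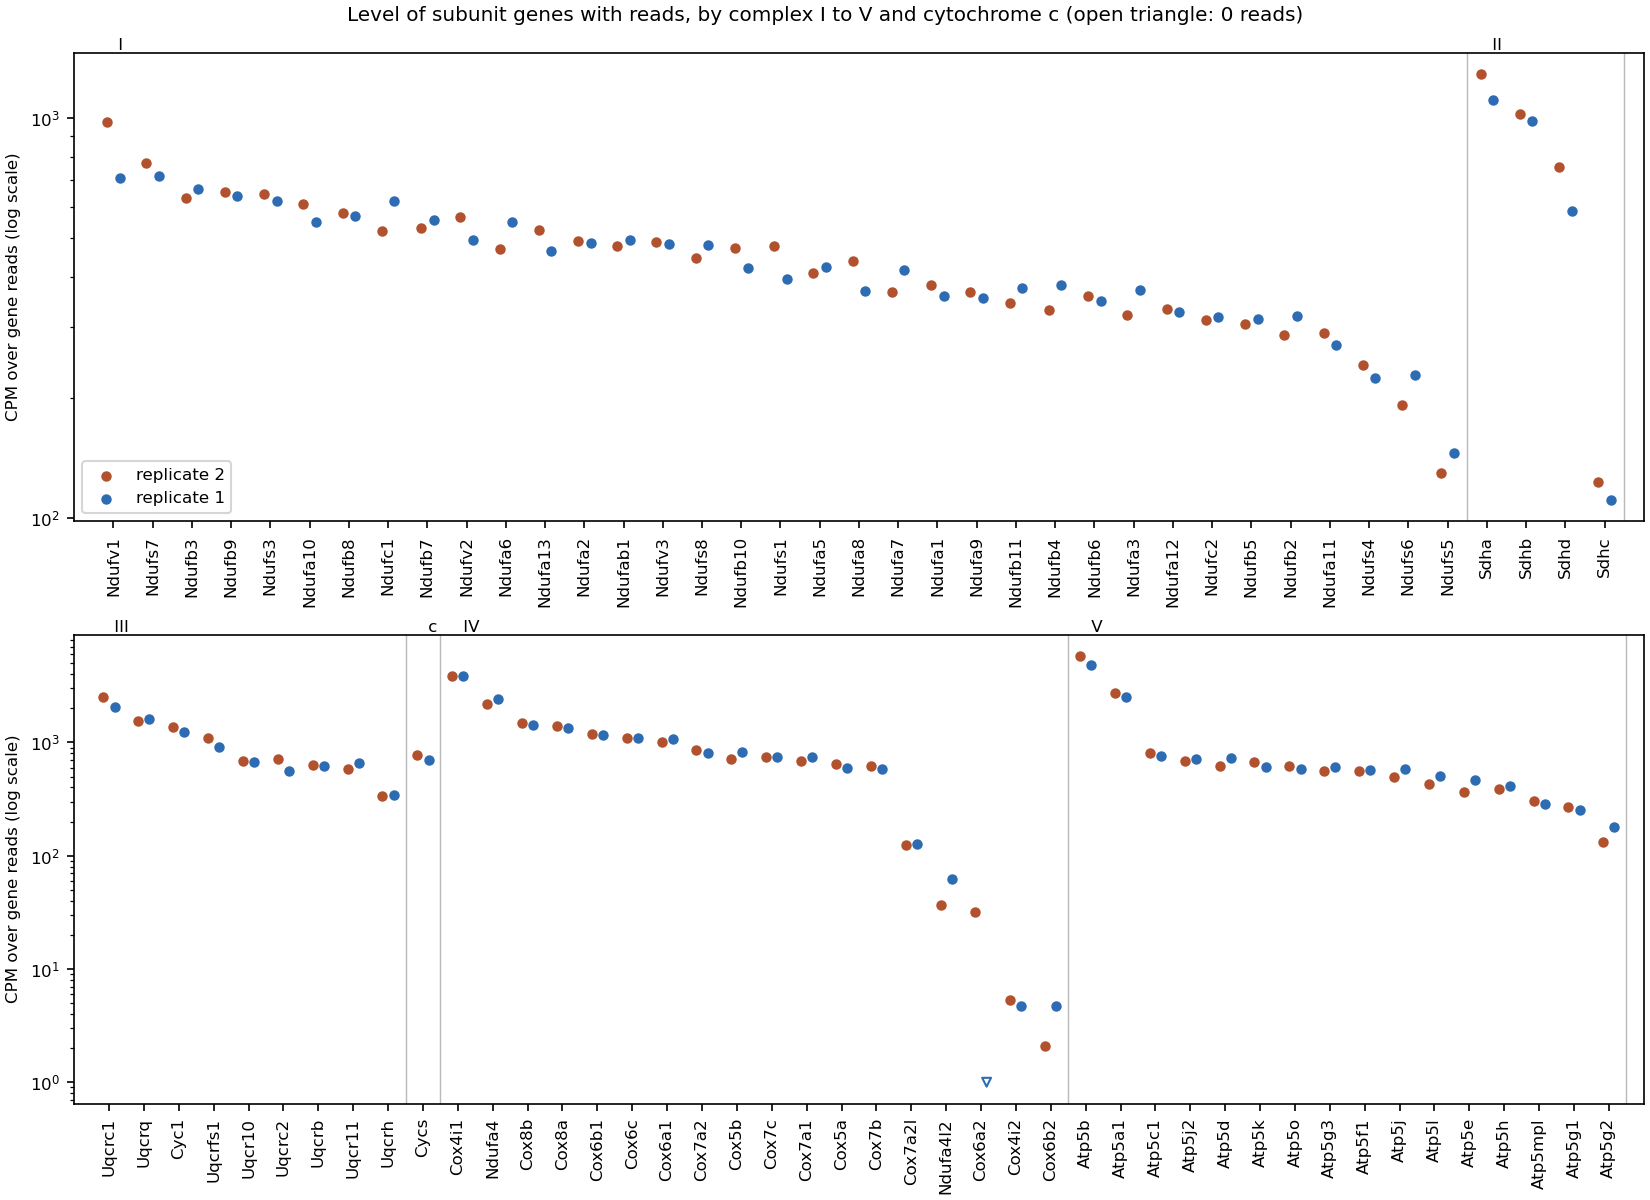
Each point is the level of 1 subunit gene in 1 library (CPM, log scale), replicate 2 left of replicate 1, ordered by mean level within complexes I to V and cytochrome c. Atp5b stands highest at 5780 and 4845 CPM in replicates 2 and 1, most members lie between 100 and 1000 CPM, and the low tail is made of complex IV paralogues.

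In complex I, the entry point for NADH, levels were even. The 36 genes lay between 138 and 844 CPM with a median of 443 CPM. Ndufv1, the core subunit that binds NADH and FMN, was the most abundant with 927 reads (979 CPM) in replicate 2 and 756 reads (709 CPM) in replicate 1. It was followed by Ndufs7, a core iron-sulfur subunit, at 773 and 716 CPM, and Ndufb3, a supernumerary membrane-arm subunit, at 632 and 663 CPM. Ndufs5 was the least abundant at 129.9 and 146 CPM. The 7 core subunits had a median of 558 CPM and the 29 supernumerary ones of 392 CPM, on transcripts of median length 1623 and 732 nt.

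Complex II, succinate dehydrogenase, has 4 subunits that stand in equal numbers in the enzyme, but their reads were unequal. Sdha, the flavoprotein, had 1286 and 1106 CPM in replicates 2 and 1, Sdhb, the iron-sulfur subunit, 1022 and 982 CPM, and Sdhd, a membrane anchor, 752 and 584 CPM. Sdhc, the other anchor, had 123 and 111 CPM (116 and 118 reads). Its leading annotated transcript is also the longest of the 4, at 3171 nt.

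In complex III, Uqcrc1, a large core subunit on the matrix side, led with 2502 and 2054 CPM in replicates 2 and 1. Uqcrq, a small supernumerary subunit, had 1556 and 1610 CPM, and Cyc1, cytochrome c1, 1373 and 1230 CPM. Cycs, the mobile carrier between complexes III and IV, had 770.2 and 694 CPM.

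In complex IV, Cox4i1 (chr8:120668222-120674207), the largest nuclear-encoded subunit, had 3681 reads (3889 CPM) in replicate 2 and 4135 reads (3881 CPM) in replicate 1. Ndufa4, first assigned to complex I and now known as a complex IV subunit, had 2194 and 2403 CPM. Cox8b, a version of the smallest subunit, followed with 1472 and 1411 CPM.

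In complex V, Atp5b (chr10:128083273-128090391), the catalytic beta subunit of the F1 head, had 5471 reads (5780 CPM) in replicate 2 and 5163 reads (4845 CPM) in replicate 1, rank 7 and rank 8 among all genes of the library. Atp5a1, the alpha subunit, had 2706 and 2507 CPM, and Atp5c1, the gamma subunit of the central stalk, 799.7 and 764 CPM. The 5 F1 genes together held 66.7% of complex V reads in replicate 2 (66.0 to 67.5%) and 63.7% in replicate 1 (62.9 to 64.5%).

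Several complex IV subunits exist as paralogues of which a tissue uses 1 or both. In the Cox8 family the version known from heart, muscle and brown fat was as abundant as the general one. Cox8b had 1393 of 2727 family reads in replicate 2, 51.1% (49.2 to 53.0%), and 1504 of 2928 in replicate 1, 51.4% (49.5 to 53.2%). Cox8a had the other 48.9% and 48.6%, and the testis gene Cox8c 0 reads, which allows a share of up to 0.110% and 0.102%. The leading annotated transcripts of Cox8b and Cox8a are 360 and 550 nt long. Both proteins are short, 70 and 69 residues, with 29 identical residues over 71 aligned positions. The coding regions, from GENCODE M21 on the GRCm38 (mm10) reference, are printed to show how far the 2 genes whose reads are set against each other differ. Capitals mark bases that differ in a global alignment or stand against a gap.
Cox8b, chr7:140898988-140900342, minus strand: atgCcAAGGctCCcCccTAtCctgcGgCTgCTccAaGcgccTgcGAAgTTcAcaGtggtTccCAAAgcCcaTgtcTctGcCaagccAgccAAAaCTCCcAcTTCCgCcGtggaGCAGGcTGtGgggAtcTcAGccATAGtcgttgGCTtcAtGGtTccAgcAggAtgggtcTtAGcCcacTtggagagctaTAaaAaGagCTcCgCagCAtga
Cox8a, chr19:7215389-7217512, minus strand: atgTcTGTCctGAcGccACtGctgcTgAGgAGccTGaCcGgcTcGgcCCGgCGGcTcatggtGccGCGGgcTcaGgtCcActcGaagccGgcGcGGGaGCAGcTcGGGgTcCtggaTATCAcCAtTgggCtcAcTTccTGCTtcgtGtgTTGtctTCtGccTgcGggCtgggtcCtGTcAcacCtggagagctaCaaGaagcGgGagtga
The aligned coding bases were 55.0% identical over 220 columns.

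The Cox7a family was shared as well. Cox7a2, the general version, had 808 of 1580 family reads in replicate 2, 51.1% (48.6 to 53.6%), and 864 of 1792 in replicate 1, 48.2% (45.9 to 50.6%). Cox7a1, the version known from heart and muscle and also made in brown fat, had 654 reads, 41.4% (39 to 43.9%), and 793 reads, 44.3% (41.9 to 46.6%). Cox7a2l, a related factor that joins complexes III and IV in supercomplexes, had 7.47% and 7.53%. The leading transcripts of Cox7a1 and Cox7a2 are 393 and 659 nt. Their coding regions are 63.1% identical over 255 columns, with 47 identical residues over 83 positions, and capitals again mark the differing bases.
Cox7a1, chr7:30184231-30185967, plus strand: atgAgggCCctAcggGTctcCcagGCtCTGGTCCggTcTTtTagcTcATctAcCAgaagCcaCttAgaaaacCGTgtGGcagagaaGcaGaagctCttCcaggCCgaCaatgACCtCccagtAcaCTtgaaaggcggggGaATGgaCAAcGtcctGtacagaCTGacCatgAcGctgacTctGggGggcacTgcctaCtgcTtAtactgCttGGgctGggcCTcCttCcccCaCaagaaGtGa
Cox7a2, chr9:79755547-79759657, minus strand: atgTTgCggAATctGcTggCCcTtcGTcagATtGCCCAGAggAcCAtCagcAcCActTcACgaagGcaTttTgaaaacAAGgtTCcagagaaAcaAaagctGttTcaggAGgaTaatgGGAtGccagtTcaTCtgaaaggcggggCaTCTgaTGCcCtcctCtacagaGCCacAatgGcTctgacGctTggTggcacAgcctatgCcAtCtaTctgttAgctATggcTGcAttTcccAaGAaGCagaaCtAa
The log2 ratio of replicate 2 over replicate 1 was 0.06 for Cox8b (counting SE 0.0536) and -0.11 for Cox7a1 (SE 0.0762), and neither was called. Beside these values, 2 of the 6 brown adipocyte markers were higher in replicate 2, Ucp1, the uncoupling protein (2075 and 1517 CPM), and Cidea, a lipid droplet protein (2349 and 1857 CPM). The other 4 were not called, with Fabp4, a fatty acid carrier, at 2838 and 2860 CPM, Plin5 at 262 and 253 CPM, Adipoq at 187 and 149 CPM and Elovl3 at 18 and 24.4 CPM. Skeletal muscle markers had 2687 and 125 CPM in sum. The part of brown fat and of muscle in the levels of Cox8b and Cox7a1 was not tested.

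The other families were dominated by the general version. Cox6a2, the heart and muscle version, had 30 reads in replicate 2 and 0 in replicate 1, against 951 and 1133 reads of Cox6a1. Its share was 3.06% in replicate 2 (2.07 to 4.34%). The 0 reads of replicate 1 allow up to 0.265% by a limit of 3 counts, or 0.325% by the Clopper-Pearson interval. Cox4i2, known from lung and induced at low oxygen, had 5 reads in each library (0.136% and 0.121% of family reads), Cox6b2, a testis version, 2 reads in replicate 2 and 5 in replicate 1, and Cox7b2 0 in both against 580 and 621 reads of Cox7b. Ndufa4l2, a hypoxia-induced relative of Ndufa4, had 35 and 67 reads, 1.66% (1.16 to 2.30%) and 2.55% (1.98 to 3.23%).

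Subunit c, which forms the rotating ring of ATP synthase, comes from 3 genes whose mature proteins are alike and whose import signals differ. Atp5g3 gave most reads, 526 of 906 in replicate 2 (58.1%, 54.8 to 61.3%) and 647 of 1111 in replicate 1 (58.2%, 55.3 to 61.2%). Atp5g1 gave 28.0% (25.1 to 31.1%) and 24.5% (22.0 to 27.1%), and Atp5g2 13.9% (11.7 to 16.3%) and 17.3% (15.1 to 19.6%). The last 78 codons before the stop encode the same residues in all 3 genes. In these 237 bases, stop included, 64 positions differ among the genes, in 56 codons, so reads of the genes differ at many places. They are printed to show this, with the differing positions in capitals.
Atp5g1, chr11:96073104-96073644, minus strand: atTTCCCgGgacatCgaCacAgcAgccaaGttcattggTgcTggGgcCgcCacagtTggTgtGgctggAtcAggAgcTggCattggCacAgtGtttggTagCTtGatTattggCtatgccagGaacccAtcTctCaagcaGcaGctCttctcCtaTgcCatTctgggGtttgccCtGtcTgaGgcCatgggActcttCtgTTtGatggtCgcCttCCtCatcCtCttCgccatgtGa
Atp5g2, chr15:102663014-102665175, minus strand: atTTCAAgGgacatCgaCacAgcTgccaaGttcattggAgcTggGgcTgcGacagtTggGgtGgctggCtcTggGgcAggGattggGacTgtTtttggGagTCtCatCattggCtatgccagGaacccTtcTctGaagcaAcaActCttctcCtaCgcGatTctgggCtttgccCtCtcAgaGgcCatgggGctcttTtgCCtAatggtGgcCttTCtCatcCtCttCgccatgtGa
Atp5g3, chr2:73908593-73909305, minus strand: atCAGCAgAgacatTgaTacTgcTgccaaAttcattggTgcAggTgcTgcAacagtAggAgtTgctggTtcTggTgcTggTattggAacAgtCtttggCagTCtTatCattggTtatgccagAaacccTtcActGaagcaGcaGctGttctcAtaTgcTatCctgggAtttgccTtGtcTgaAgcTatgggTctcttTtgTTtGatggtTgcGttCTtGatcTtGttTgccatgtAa

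**Figure D2:**
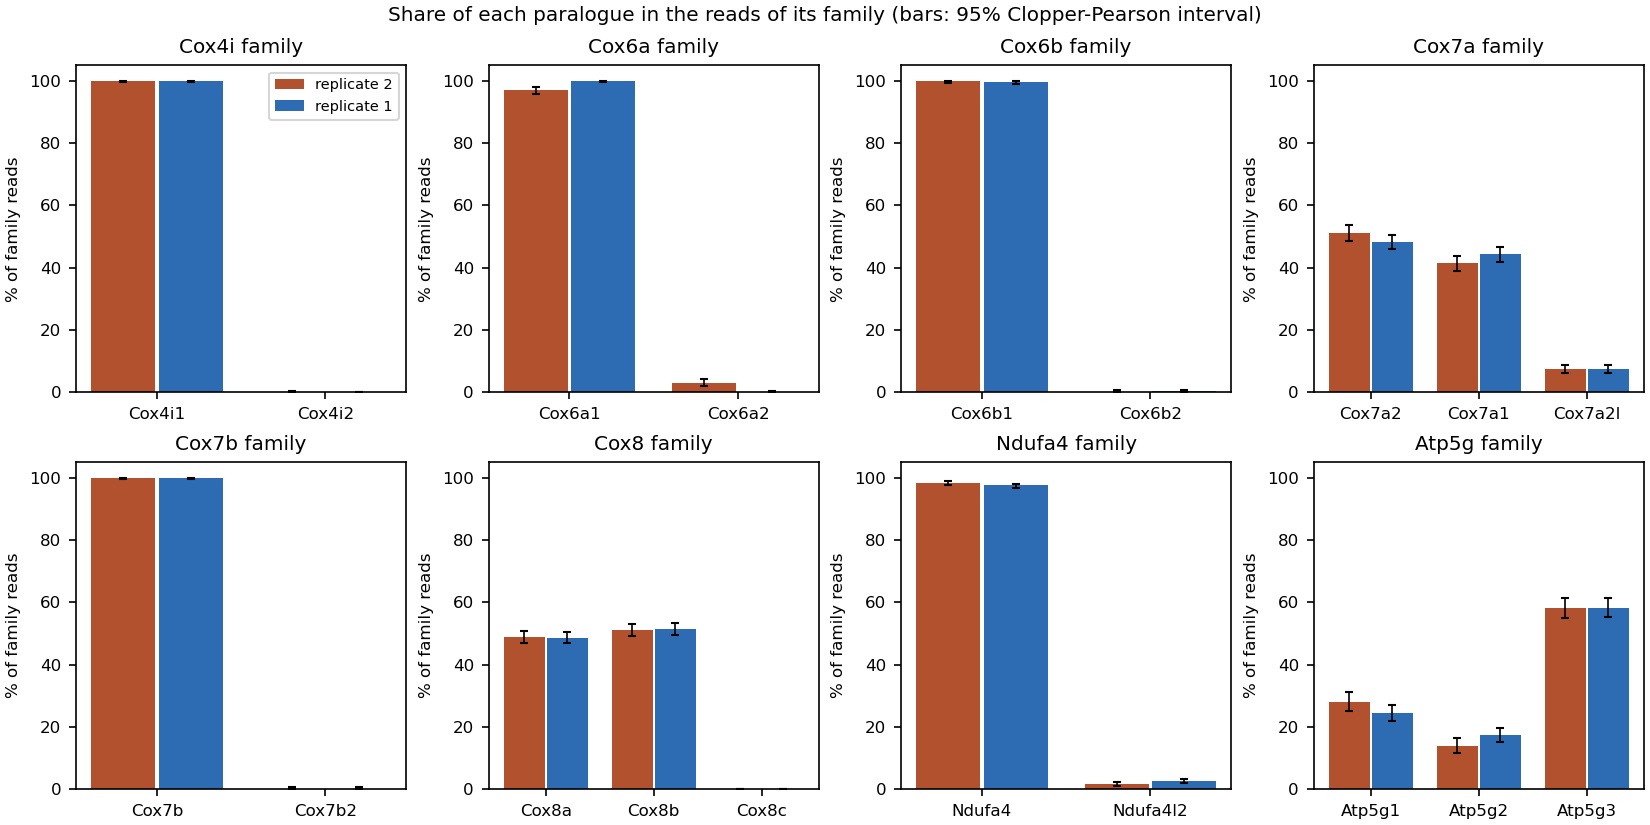
Bars give the share of each paralogue in the summed reads of its family (%), replicate 2 left of replicate 1, with 95% Clopper-Pearson intervals from counting. Cox8 (51.1% and 51.4% Cox8b) and Cox7a (41.4% and 44.3% Cox7a1) are shared between paralogues in both libraries, Atp5g among 3 genes, and the other families are held by 1 gene.

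Between the libraries most members differed little. By an exact conditional binomial test on reads (two-sided, at least 20 summed reads, adjusted by Benjamini-Hochberg over all 9211 genes tested), 83 members were tested, 11 were higher in replicate 2 (8.58% of all genes tested), 9 were lower (17.9% of all genes tested) and 63 were not called. The test compares these 2 libraries, 1 on each side, so it covers counting error only. Reads that carry no molecular identifier may also be copies of 1 molecule, which the test does not cover. The 3 members under 20 summed reads were Cox4i2, Cox6b2 and the second Atp5o entry. The median log2 ratio of replicate 2 over replicate 1 was 0.02 over the 83 members and -0.28 over all genes tested, so members stood 0.30 above the median gene, and 80 of 83 lay above it. This sets what the directions mean: with scaling by TMM, DESeq2 size factors or spike-in reads, which shift the median gene to 0.00, -0.04 and 0.31, 53, 45 and 77 members were higher (12.5%, 11.7% and 22.5% of all genes tested) and 0 lower in each (5.99%, 7.12% and 1.85%). All 11 members called higher kept that call under these 3 scalings, and all 9 called lower lost theirs, 6 of them being called higher with spike-in scaling. Where the coefficient of variation was assumed to be 0.2, 1 member was called higher, Cox6a2, and 0 lower (4.84% and 0.727% of all genes tested). Without the filter on reads 11 were higher and 5 lower (4.84% and 7.86% of 18111 genes), and scaling by summed member reads, chosen after seeing the data, gave 8 and 11 (8.28% and 21.4%).

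The higher members included 4 of 4 core subunits of complex III, 2 of 7 of complex I and 2 of 4 subunits of complex II. They also included 2 of 5 of the F1 head, of which 2 others, Atp5d and Atp5e, were lower. Of all genes tested 8.58% were higher. Core was set separately for each enzyme, and in complex III it stands for Uqcrc1, Uqcrc2, Cyc1 and Uqcrfs1. These 4 have leading transcripts of median 1586 nt, against 535 nt for the supernumerary subunits of complex III. Ndufv1 stood at 979 CPM in replicate 2, against 709 CPM in replicate 1, a log2 ratio of 0.46 (SE 0.0707, exact test, adjusted p = 8.02e-10). Sdhd had 752 and 584 CPM (0.37, SE 0.0792, exact test, adjusted p = 3.85e-05). Uqcrc2, the second matrix-side core subunit of complex III, had 711 and 561 CPM (0.34, SE 0.0810, exact test, adjusted p = 2.35e-04), and Uqcrc1, at 2502 and 2054 CPM, followed with 0.28 (SE 0.0428, exact test, adjusted p = 5.57e-10). The other higher genes were Ndufs1 (0.27, 479.6 CPM in replicate 2 and 397 CPM in replicate 1), Atp5b (0.25), Uqcrfs1, the Rieske iron-sulfur subunit (0.24), Sdha (0.22), Cyc1 (0.16) and Atp5a1 (0.11). Ndufs1, Cyc1 and Atp5a1 were no longer called with reads of Known models only (exact test, adjusted p = 0.174, 0.0799 and 0.103) or with scaling by summed member reads (0.0722, 0.148 and 0.283). None of the 5 supernumerary subunits of complex III and the 29 of complex I was among them. The last is Cox6a2, with 30 reads in replicate 2 against 0, 11.3-fold higher against a limit of 3 counts in replicate 1, where the exact 95% counting interval of the ratio begins at 8.6-fold (exact test, adjusted p = 2.45e-09). Skeletal muscle markers moved with it, and their part in it was not tested.

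None of the lower members kept that call under TMM, DESeq2 or spike-in scaling. Ndufa4l2 stood at 37 CPM in replicate 2, against 62.9 CPM in replicate 1, a log2 ratio of -0.76 (SE 0.299, exact test, adjusted p = 0.0395), and 3 scalings left it negative and not called. Atp5g2 had 133 and 180.2 CPM (-0.43, SE 0.165, exact test, adjusted p = 0.0340), turning to 0.15 with spike-in scaling. Atp5e, the epsilon subunit of the F1 stalk, had 366 and 463 CPM (-0.34, SE 0.101, exact test, adjusted p = 0.00472), turning to 0.25 with spike-in scaling. Atp5j, a peripheral stalk subunit, stood at -0.26, Ndufc1 and the F1 delta subunit Atp5d at -0.25, Ndufa6 at -0.23, Cox5b at -0.19 and Ndufa4 at -0.13. With spike-in scaling and with TMM factors all of these 6 turned positive, and with DESeq2 size factors Ndufa6, Cox5b and Ndufa4 did.

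Shares within an enzyme do not depend on scaling. Core subunits made up 59.9% of complex III reads in replicate 2 (58.9 to 61.0%) and 54.9% in replicate 1 (53.9 to 55.9%), and 27.2% (26.5 to 27.9%) and 24.9% (24.2 to 25.5%) of complex I reads. Atp5b made up 37.6% of complex V reads in replicate 2 (36.8 to 38.4%) and 33.1% in replicate 1 (32.4 to 33.9%), and Ndufv1 6.0% (5.63 to 6.39%) and 4.42% (4.12 to 4.74%) of complex I reads. These intervals do not overlap, but both genes had been called higher on the same reads, so this is no separate support. Atp5a1, called higher as well, held 17.6% (17 to 18.2%) and 17.1% (16.6 to 17.7%) of complex V reads, which overlap. Of members called lower, Atp5e held 2.38% (2.13 to 2.64%) and 3.16% (2.9 to 3.45%) of complex V reads. Atp5g2 held 0.865% (0.721 to 1.03%) and 1.23% (1.07 to 1.42%) of them, and Ndufa4 13.1% (12.6 to 13.6%) and 14.3% (13.8 to 14.8%) of complex IV reads. The intervals of these lower members do not overlap, but they rest on the reads that gave the calls. How often intervals fail to overlap over all members or genes was not computed. Shares of the other lower members were not computed. Cox4i1 held 23.2% (22.6 to 23.9%) and 23.0% (22.4 to 23.7%) of complex IV reads, which overlap.

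**Figure D3:**
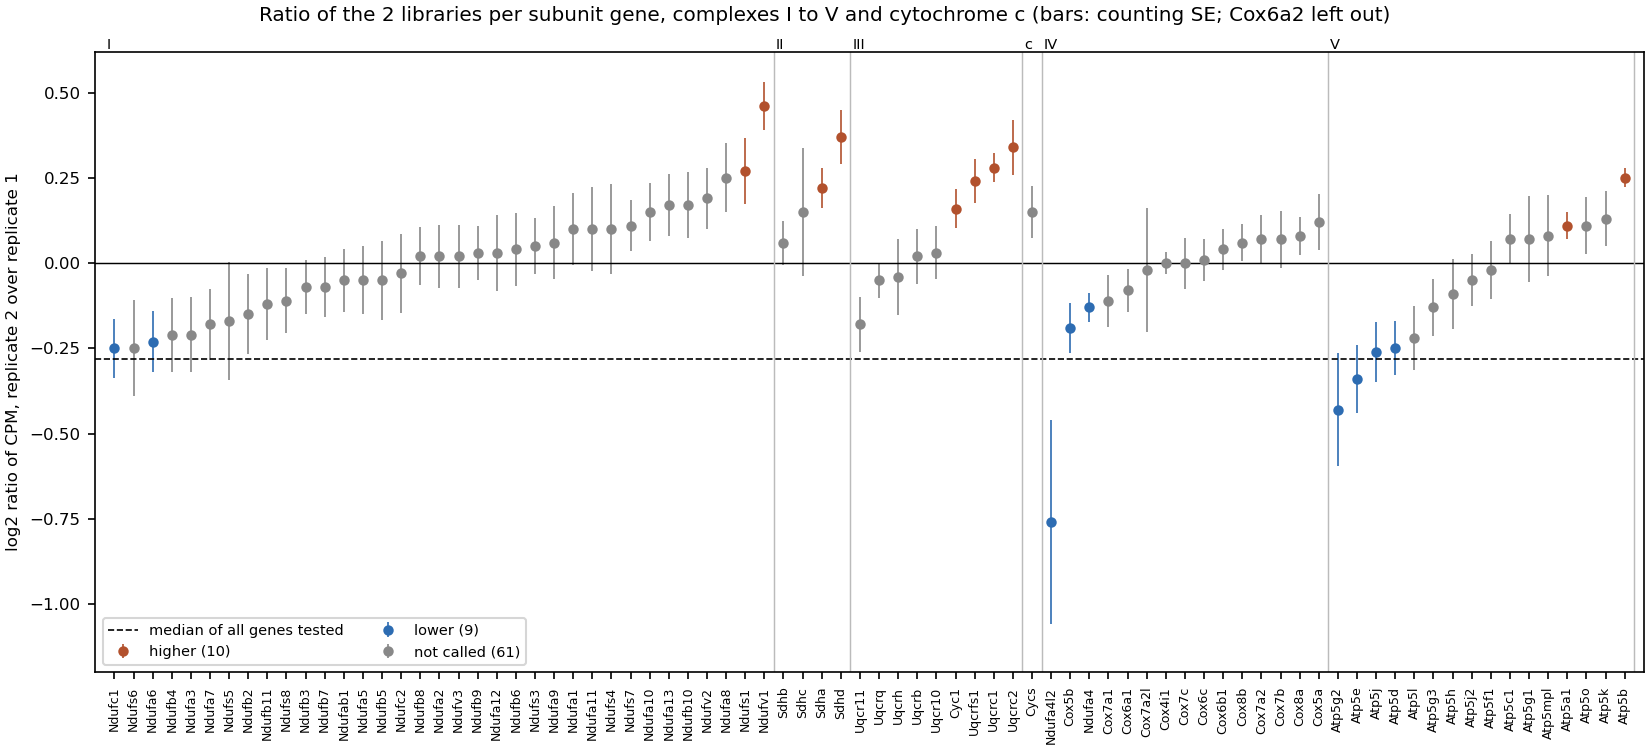
Points give the log2 ratio of CPM, replicate 2 over replicate 1, of tested subunit genes within complexes I to V and cytochrome c, with the counting SE; Atp5s is left out, and so is Cox6a2, which had 0 reads in replicate 1. The dashed line is the median of all genes tested at -0.28, and nearly all points lie above it.

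Transcript lengths differed between the called sets. The 11 higher members had leading annotated transcripts of median 1661 nt (680 to 2900 nt), the 9 lower ones of 809 nt (421 to 1249 nt) and the 63 not called of 714 nt (360 to 4371 nt). Across the 83 members Spearman's rho of length and log2 ratio was 0.351, across all genes with a length 0.172 (n = 8973) and across ERCC spike-ins 0.163 (n = 29). Genes are not independent replicates, all points share the same 2 libraries, and lengths are those of the annotation, so these are descriptions. The median ratio of members with transcripts up to 500 nt was 0.03 (n = 9), over 500 and up to 1000 nt -0.05 (n = 43), over 1000 and up to 2000 nt 0.06 (n = 24), over 2000 and up to 3000 nt 0.19 (n = 4) and over 3000 nt 0.15 (n = 3), so the shortest members stood above the next ones. All genes tested had -0.44, -0.39, -0.36, -0.33 and -0.13 in the same order of lengths. The part of length in the calls was not tested.

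**Figure D4:**
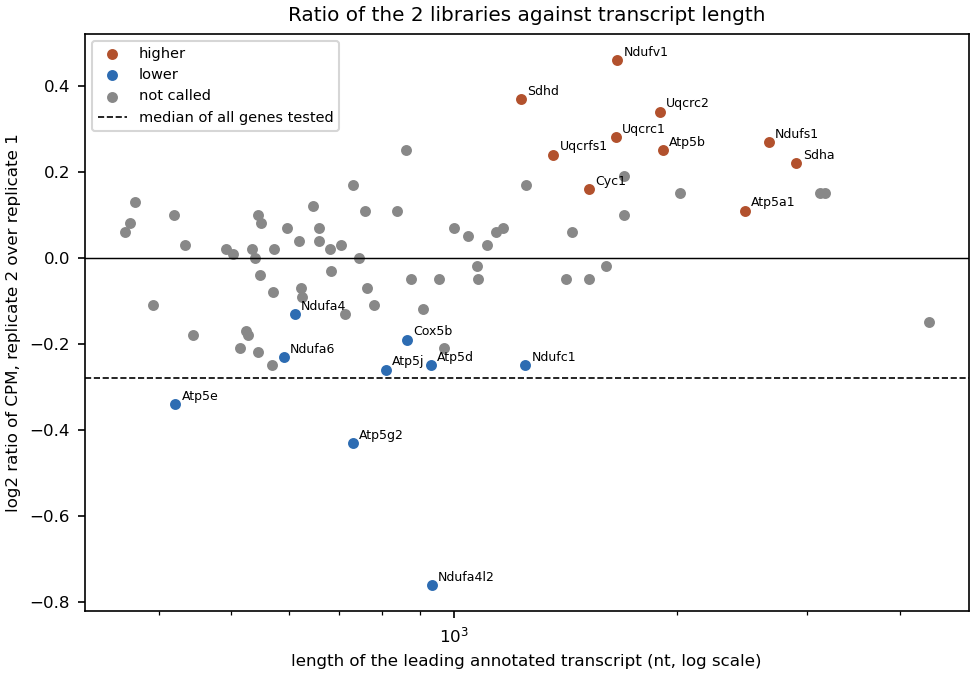
The log2 ratio of CPM, replicate 2 over replicate 1, is plotted against the length of the leading annotated transcript (nt, log scale) for tested subunit genes without Cox6a2 and Atp5s. Labelled genes passed the test: the 10 higher ones lie right of 1000 nt, and of the 9 lower ones only Ndufc1 (1249 nt) does.

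Each read shows which introns were removed together, so isoforms were counted by intron chain, over reads of Known chains (an annotated transcript), NIC chains (known splice sites joined in a way that no annotated transcript shows) and NNC chains (a splice site that the annotation lacks). Most members used 1 chain. Of 79 members with at least 20 such reads in each library, 10 had a second chain at 10% or more in both libraries, against 25.0% of all 5076 such genes. At 5% or more there were 18 (37.9% of all) and at 20% or more 8 (11.9%), and with a single library 11 in replicate 2 (31.6%) and 12 in replicate 1 (31.8%). In 45 of the 62 members tested for a shift, the leading chain held 90% or more in both libraries.

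In 2 of the 10, annotated chains in use differ in the protein. Atp5c1 carries a 37 nt exon at the end of its coding region (chr2:10056770-10056806, minus strand), of which 7 bases are coding. Reads with the exon numbered 444 of 695 in replicate 2, 63.9% (60.2 to 67.5%), and 524 of 751 in replicate 1, 69.8% (66.3 to 73.0%). In human, skipping of the corresponding exon is known as the heart and muscle form. The protein has 298 residues with the exon and 297 without it. The coding ends are printed with the bases after the last shared exon in capitals, stop codon included.
Atp5c1 with the exon, chr2:10056800-10059063, minus strand: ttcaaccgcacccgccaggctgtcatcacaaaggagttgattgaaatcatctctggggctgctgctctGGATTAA
Atp5c1 without the exon, chr2:10056158-10059063, minus strand: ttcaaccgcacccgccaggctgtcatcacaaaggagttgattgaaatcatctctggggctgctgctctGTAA
The leading chain, Atp5c1-203, held 62.4% and 67.5% of chain reads in replicates 2 and 1, which did not pass the test of a shift (Fisher's exact test, adjusted p = 0.597).

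Ndufv3, a supernumerary subunit of the complex I arm that binds NADH, has a large exon within its coding region (chr17:31527310-31528401, plus strand, 1092 nt, 364 codons). The protein has 468 residues with it and 104 without. Reads with the exon were 197 of 450 in replicate 2, 43.8% (39.1 to 48.5%), and 167 of 493 in replicate 1, 33.9% (29.7 to 38.2%). The short form Ndufv3-202 led with 55.1% and 64.5% of chain reads, and the difference missed the threshold (Fisher's exact test, adjusted p = 0.176). The coding junctions that tell the forms apart are printed with exon bases in capitals.
Ndufv3 entry to the exon, chr17:31521663-31527339, plus strand: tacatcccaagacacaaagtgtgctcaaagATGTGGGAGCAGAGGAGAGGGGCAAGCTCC
Ndufv3 exit from the exon, chr17:31528372-31531139, plus strand: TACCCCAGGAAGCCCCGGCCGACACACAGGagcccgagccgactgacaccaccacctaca
Ndufv3 without the exon, chr17:31521663-31531139, plus strand: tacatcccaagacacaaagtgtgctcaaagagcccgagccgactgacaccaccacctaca

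Ndufs1, the largest core subunit of complex I, varied before its start codon. Its leading chain Ndufs1-201 held 41.4% (36.7 to 46.1%) of reads in replicate 2 and 42.2% (37.4 to 47.2%) in replicate 1, and Ndufs1-203, which leaves the first exon at another splice site, 21.6% and 21%. A 104 nt exon (chr1:63172154-63172257, minus strand) between the first exon and the exon of the start codon was held by 148 of 436 reads in replicate 2, 33.9% (29.5 to 38.6%), and 121 of 401 in replicate 1, 30.2% (25.7 to 34.9%). It was joined to both first splice sites, with 81 and 65 reads on the upstream one (30% and 26.4% of the reads that leave there) and 60 and 50 on the downstream one (38.2% and 35.0%). The 2 commonest chains with the exon, of 76 and 59 reads in replicate 2 and 63 and 49 in replicate 1, are unannotated (NIC).

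Of the other 7 genes, 4 used a pair of annotated chains with the same coding bases. Ndufb2-205 (55.1% and 61.9% in replicates 2 and 1) and Ndufb2-202 (40.3% and 33.2%) encode the same protein, as do Ndufs8-205 (73.5% and 71.1%) and Ndufs8-201 (20.1% and 21%). Atp5g1-202 (60.4% and 59.7%) and Atp5g1-201 (32.8% and 34.9%) share their coding bases, as do Atp5g3-201 (59.1% and 68.8%) and Atp5g3-202 (30.2% and 25.3%; Fisher's exact test of the leading chain, adjusted p = 0.0990). In Atp5j, Atp5j-201 held 42.3% and 41.4%, a chain of 3 introns, classed ISM in replicate 2 and NNC in replicate 1, 16% and 11.3% and another NNC chain 13.5% and 13.0%. These shares leave out an incomplete chain that held 61.6% and 58.1% of all Atp5j reads. Ndufa7-204, annotated as a retained intron, held 12.7% (9.37 to 16.6%) and 14.4% (11.3 to 18.1%) beside Ndufa7-201 at 81.6% and 77.2%. Cox4i1-204, annotated as a retained intron, held 58.5% (56.9 to 60.1%) and 58.2% (56.7 to 59.7%) of Cox4i1 chain reads, but its 2 introns are also the last introns of the coding Cox4i1-201 (39.7% and 39.4%), so a read of Cox4i1-201 that stops short carries the same chain.

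Only Atp5d passed the test of a shift in the leading chain, 1 of 62 members, where 1.15% of 2969 genes did. Atp5d-201 held 537 of 559 reads in replicate 2, 96.1% (94.1 to 97.5%), and 665 of 733 in replicate 1, 90.7% (88.4 to 92.7%; Fisher's exact test, adjusted p = 0.0172). Atp5d-203, which has 1 more intron before the same coding region, held 9 reads (1.61%) in replicate 2 and 50 reads (6.82%) in replicate 1. The introns of Atp5d-201 are also the last introns of a longer annotated chain, so a read of that chain that stops short counts as Atp5d-201. Of the 62 members, 57 differed by less than 5 percentage points.

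**Figure D5:**
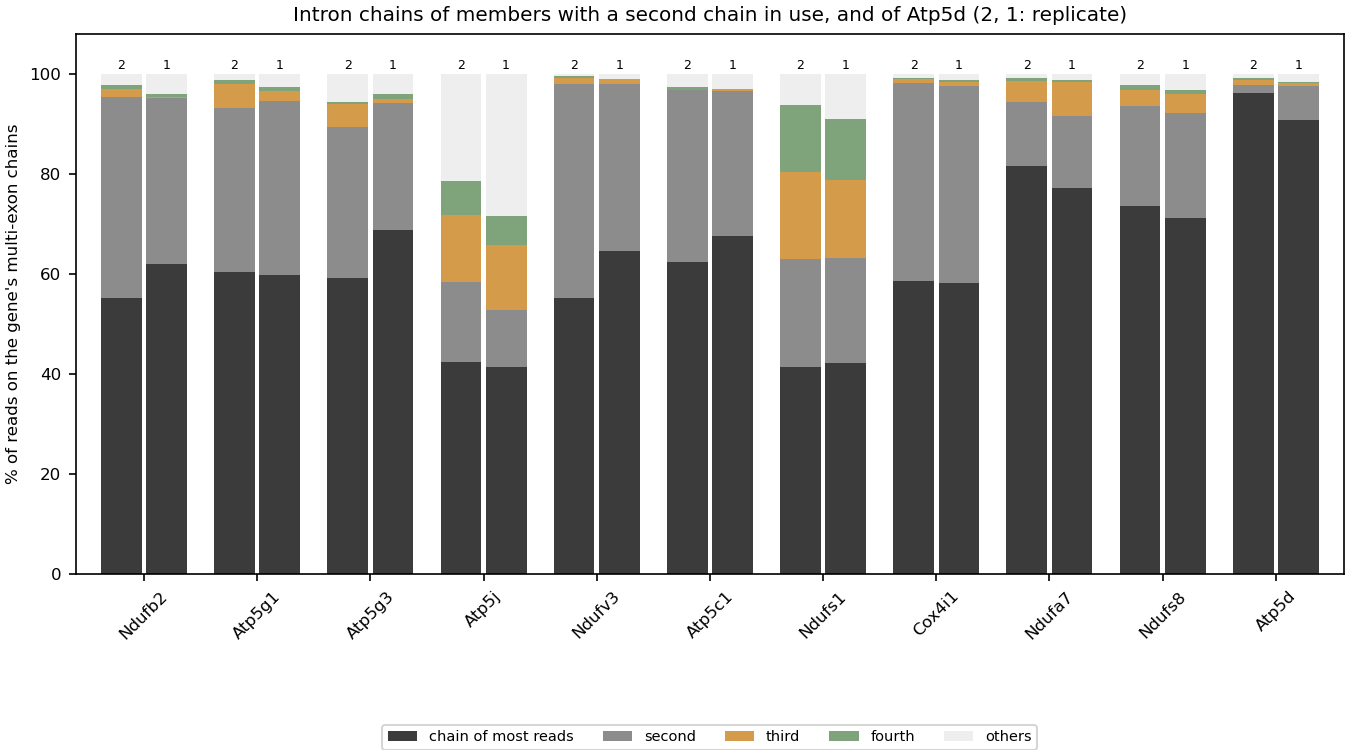
Stacked bars give the 4 commonest counted intron chains, replicate 2 left of replicate 1, for the 10 members with a second chain in use and Atp5d. Shares are % of the gene's reads on multi-exon chains classed Known, NIC or NNC in either library. For Atp5j this leaves out an incomplete chain with 61.6% and 58.1% of all its reads. The leading chain of each gene is the same in both libraries, the next 2 chains of Atp5j change places, and Atp5g3 (59.1% and 68.8% leading) and Ndufv3 (55.1% and 64.5%) are the furthest apart.

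Reads that held only part of an annotated chain (class ISM) made up 11.9% of member reads in replicate 2 (11.7 to 12.2%) and 12.5% in replicate 1 (12.2 to 12.8%), and Known reads 85.9% and 85.0%. Over all annotated genes Known reads made up 78.2% and 76.1%. By gene, the median Known share was 95.6% and 94.0% over 81 members with 20 reads in each library and 83.2% and 81.0% over all 5969 such genes. Only Cox7a1 passed the test, 1 of 81 members where 0.637% of all genes did: 568 of 654 reads were Known in replicate 2, 86.9%, and 611 of 793 in replicate 1, 77.0% (Fisher's exact test, adjusted p = 0.00105).

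A single incomplete chain took 20% or more of the reads in both libraries in 8 of the 81 members, against 3.95% of all genes, a threshold set after the values were seen. In 3 of them the chain still held every coding intron. These were Ndufa13 (97.8% and 95.8% in replicates 2 and 1), Atp5f1 (91.7% and 88.8%) and Atp5j (61.6% and 58.1%), whose annotated transcripts carry a further exon upstream. In the other 5 it began inside the coding region. Ndufb3 had 409 of 598 reads (68.4%) and 494 of 706 (70.0%) on its last exon alone, and Uqcrq 26.9% and 28.0%. Ndufa4 had 56.0% and 54.1% of reads on its last 2 exons, Ndufs7 44.8% and 45.2% and Atp5b 30.1% and 30.6%. The part that these chains hold is 49.8% of the coding bases in Ndufb3, 47.4% in Ndufa4, 38.2% in Uqcrq and 27.7% in Ndufs7. In these 4 genes the deposited partial models start at the first base of the exon in both libraries, and so did that of Cox7a1, with 77 and 170 reads of the last exon. The start of a model stands for all its reads. The coding bases around the start are printed for these 5, with bases inside the partial model in capitals.
Ndufb3, chr1:58591230-58595668, plus strand: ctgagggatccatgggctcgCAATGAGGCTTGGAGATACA
Ndufa4, chr6:11905243-11906039, minus strand: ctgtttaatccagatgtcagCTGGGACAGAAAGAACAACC
Ndufs7, chr10:80255117-80255943, plus strand: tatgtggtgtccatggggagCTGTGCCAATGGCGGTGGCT
Uqcrq, chr11:53429131-53430555, minus strand: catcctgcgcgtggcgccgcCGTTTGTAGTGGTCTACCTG
Cox7a1, chr7:30185340-30185931, plus strand: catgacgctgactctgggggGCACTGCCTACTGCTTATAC

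The genes that build and regulate the chain were far less abundant. All 44 assembly factors had reads, and their sum made up 0.335% of all gene reads for replicate 2, against 0.377% for replicate 1. Cox17, a copper chaperone of complex IV, had 332 and 357 CPM, Cox14, which takes part in early complex IV assembly, 229 and 429 CPM, and Tmem70, a factor of ATP synthase assembly, 270.5 and 329 CPM. Of 43 tested, 0 were higher and 2 lower (8.58% and 17.9% of all genes tested): Cox14 (log2 ratio -0.90, SE 0.119, exact test, adjusted p = 1.29e-13) and Sdhaf4, an assembly factor of Sdha (-0.72, SE 0.202, exact test, adjusted p = 0.00193), with a median of -0.10 over the list. The calls of Cox14 and Sdhaf4 are given with scaling by total gene reads only. Lower calls of members were lost under TMM, DESeq2 and spike-in scaling. Of 13 regulators 9 were tested and none of these 9 was called (26.4% of all genes tested were, in either direction). Esrra, a nuclear receptor that drives many of these genes, had 114 and 116 CPM, Polrmt, the mitochondrial RNA polymerase, 72.9 and 49.7 CPM, and Tfam, which packs mitochondrial DNA, 39.1 and 50.7 CPM.

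Promoters of the members were searched for letters of factors known to act on respiratory genes, in RefSeq promoters on GRCm38.p6 (250 bases before to 50 after the start, both strands). Of 85 members looked up 69 had an entry. GCGCATGCG, core letters of the palindrome bound by Nrf1, was in 9 (13.0%; Atp5g2, Atp5k, Atp5l, Cox6a1, Cycs, Ndufa11, Ndufa8, Uqcr11 and Uqcrc1), against 1.95% of 27025 genes. AAGATGGCG, a form of the Yy1 site, was in 7 (10.1%; Atp5j, Atp5j2, Ndufa9, Ndufc1, Ndufs4, Ndufs6 and Ndufs7), against 1.64%, and CCGGAAGTG, the core of the ETS factors, in 2 (2.90%; Ndufs3 and Uqcrh), against 2.25%. None of the 3 motifs contains another, and a match is not a bound site. The start site is that of the RefSeq promoter entry. By the GENCODE M21 coordinates the Atp5g2 stretch lies inside the gene, and the Atp5k stretch crosses the upstream end of its gene. The 5 stretches with the Nrf1 letters before the RefSeq start site and at least 20 bases from either end of the 250 are printed. The motif, on either strand, is in capitals.
Cox6a1 promoter, chr5:115349092-115349140, minus strand: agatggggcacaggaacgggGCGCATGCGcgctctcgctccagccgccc
Cycs promoter, chr6:50566602-50566650, minus strand: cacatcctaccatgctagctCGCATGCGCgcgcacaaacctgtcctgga
Atp5k promoter, chr5:108434421-108434469, minus strand: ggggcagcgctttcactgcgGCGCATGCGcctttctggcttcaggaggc
Ndufa11 promoter, chr17:56717682-56717730, plus strand: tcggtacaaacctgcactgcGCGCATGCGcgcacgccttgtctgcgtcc
Atp5g2 promoter, chr15:102671061-102671109, minus strand: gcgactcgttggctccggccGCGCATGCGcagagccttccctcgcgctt
Nrf1 itself stood at 42.3 CPM in replicate 2, against 29.1 CPM in replicate 1, which did not pass the test (exact test, adjusted p = 0.267).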

How the data were processed

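The authors deposited, for each library, a table of whole-number read counts per transcript model and a transcript annotation. Per the file headers these are on mm10 with GENCODE M21 and carry TALON model classes. Raw counts are deposited, 1 table per library. Not given in the sources used here are aligner, TALON release and filters on reads. Spike-ins were Ambion mix 1 and Lexogen set 4 per the labels, and reads on ERCC sequences (16032 in replicate 2, 27102 in replicate 1) were left out of gene reads.

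Reads of all classes were summed per gene and scaled to CPM. Log2 ratios had 0.5 reads added. An exact conditional binomial test compared genes from 20 summed reads on, and Fisher's exact test compared chain and Known shares of genes with 20 reads in each library, in scipy 1.17.1, both with Benjamini-Hochberg adjustment at 0.05. The chain test also needed 2 chains of 5 summed reads, and a chain of class Known, NIC or NNC in either library counted in both. With 1 group no quasi-likelihood contrast exists. Scaling factors and the test with an assumed coefficient of variation came from edgeR 4.0.16 and DESeq2 1.42.0. The tests were tried on simulated counts. Shares have exact Clopper-Pearson 95% intervals. Intervals and the limit of 3 counts for a 0 (3.17 CPM in replicate 2, 2.82 CPM in replicate 1) cover counting error only. Lengths are those of the annotated coding transcript with most reads, or, for a member with no such read, of the longest annotated coding transcript. In Ndufa13 and Atp5f1 at most 1 read per library was Known, and most reads lay on an incomplete chain.

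Members and lists were chosen with earlier results of these data known. Values are given for the 3 most abundant members of each complex, all paralogues, the 5 highest and 5 lowest called ratios, members with a second or shifted chain or 0 reads, and, of assembly factors and regulators, the 3 most abundant and the 3 largest called ratios. Motif letters were shortened after a first search with longer forms. Among the members, 1 gene counted in totals and tests is not reported here by name and is left out of the plots.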

Additional observations from a re-analysis of the deposited data

Results flagged for a closer look

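Reads of the Antisense class, which belong to no annotated gene and entered no comparison, lay on the strand opposite to a member in more than 3 reads per library, the limit that a count of 0 allows, at 5 of the members reported here. Over all annotated genes with reads it was 1267 of 18111 (7.00%). At least 1 such read in either library was seen at 46 members and at 8494 of these 18111 genes. The study has no control samples to set them against. Atp5g2 had 17 such reads in replicate 2 and 9 in replicate 1, Ndufs6 13 and 7, Sdhc 10 and 8, and Uqcrc1 8 and 9. Sdhb had 7 in each library. Their origin was not tested.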

How the results depend on the processing

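Scaling of the whole library decided the calls between the libraries. The median log2 ratio of members, 0.02 as reported, was 0.31 with TMM factors, 0.27 with DESeq2 size factors and 0.61 with spike-in reads. Against 11 members higher and 9 lower as reported, these gave 53 and 0, 45 and 0, and 77 and 0. Without a filter beyond 1 summed read 5 members were lower, and where the coefficient of variation was assumed to be 0.2 there was 1 higher and 0 lower. Scaling by summed member reads, an alternative chosen after seeing the data, gave 8 higher and 11 lower. Counting Known models only moved the member share of gene reads to 6.73% in all, 1.80% for complex I, 0.332% for complex II, 1.08% for complex III, 0.0926% for cytochrome c and 1.94% for complex IV. Leaving out a replicate gave shares from 5.97 to 6.19% in all, 1.60 to 1.63% for complex I, 0.278 to 0.318% for complex II, 0.867 to 0.946% for complex III, 0.0694 to 0.0770% for cytochrome c, 1.67 to 1.69% for complex IV and 1.46 to 1.54% for complex V, and 11 to 12 members with a second chain. With a second chain counted from 5% there were 18 such members, and from 20% there were 8. Within their genes, the leading chain of Atp5d was still called with Known chains only and with 50 reads in each library, and the Known share of Cox7a1 with 50 reads in each library, its only alternative.

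Log2 ratios turned in sign as follows. TMM factors gave Ndufb3 0.22, Uqcrq 0.24, Ndufa4 0.15, Cox6a1 0.20, Cox7a2l 0.26, Cox7a1 0.18, Atp5g3 0.16, Atp5d 0.04, Ndufa6 0.06, Atp5j 0.03, Ndufc1 0.04 and Cox5b 0.10. DESeq2 size factors gave Ndufb3 0.18, Uqcrq 0.19, Ndufa4 0.11, Cox6a1 0.16, Cox7a2l 0.22, Cox7a1 0.14, Atp5g3 0.12, Ndufa6 0.02 and Cox5b 0.06. Spike-in reads gave Ndufb3 0.52, Uqcrq 0.54, Ndufa4 0.46, Cox6a1 0.50, Cox7a2l 0.56, Cox7a1 0.48, Atp5g3 0.46, Atp5g2 0.15, Atp5d 0.34, Atp5e 0.25, Ndufa6 0.36, Atp5j 0.33, Ndufc1 0.34 and Cox5b 0.40. With Known models only Cox4i1 stood at -0.04, Cox6b1 at -0.01 and Cox7a1 at 0.03, without Genomic reads Cox4i1 at -0.01, and with summed member reads Cox4i1 at -0.05 and Cox6b1 at -0.01. The cause was not tested. No paired analysis was possible because the study holds a single group. With 2 libraries, no test covers the spread between animals, and members under 20 summed reads were not tested.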

Other observations

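Of 13 annotated genes with a matching symbol that are not protein-coding, 2 had reads. Ndufb1-ps, annotated as a bidirectional promoter lncRNA, had 267 reads (282 CPM) in replicate 2 and 384 reads (360.4 CPM) in replicate 1, a level within the range of complex I genes, and Atp5l2-ps, a processed pseudogene, had 0 reads in replicate 2 and 1 in replicate 1. Atp5s, which the symbol rule takes in, gave 18 reads for replicate 2, against 21 for replicate 1. The second Atp5o entry had 1 read in replicate 2 and 0 in replicate 1.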
